A study of Rattus norvegicus with 10 samples.

Results

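Napepld and Pld1 are the genes of the phospholipase D activities that could be named on this array of rat lung RNA. The members were chosen by accession: a catalogue probe annotated with NM_199381 is read as Napepld (probe A_44_P451930), and a catalogue probe annotated with NM_030992 as Pld1 (probe A_44_P338970). They are 2 of the 30 genes with a named probe, and their probes are 2 of the 38804 probes other than controls. Only 50 of those are catalogue probes, and the others were not named here. Shares and medians over all tested probes therefore describe mostly unnamed probes, not known genes. Each member has 1 probe, printed as 10 spots on every array. The samples were lung tissue of male Wistar rats aged 8 weeks: 5 samples from animals in which lipopolysaccharide (LPS, the endotoxin of Gram-negative bacteria) had been used to induce septic shock, and 5 from control animals. No transgene or deletion is named in the labels, all samples share strain, sex and age, and neither the dose nor the route nor the time after LPS is stated in the sources used here. What the control animals received is likewise not stated there.

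Phospholipases D cut a phospholipid on the far side of its phosphate, which leaves phosphatidic acid and frees the head group. Pld1 encodes the classical enzyme, which acts on phosphatidylcholine, is switched on by small GTPases of the Arf family and by protein kinase C, and takes part in vesicle traffic, secretion and the activation of leukocytes. Napepld encodes a zinc hydrolase of the metallo-beta-lactamase fold that is unrelated to the classical family in sequence. It acts on N-acyl-phosphatidylethanolamines and releases N-acylethanolamines, the lipid amides that include anandamide, an agonist of cannabinoid receptors, and palmitoylethanolamide, known for anti-inflammatory actions.

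The promoters of the genes are shown because the enzymes, similar in name, have start regions of different make-up. Both were read from RefSeq promoters of assembly GRCr8, which run from 250 bases before the start to 50 after it and which matched both members by symbol. The Napepld promoter lies at chr4:14253010-14253309 and the Pld1 promoter at chr2:112821926-112822225, both on the + strand. Capitals mark matches to the 4 motifs searched on both strands.
Napepld: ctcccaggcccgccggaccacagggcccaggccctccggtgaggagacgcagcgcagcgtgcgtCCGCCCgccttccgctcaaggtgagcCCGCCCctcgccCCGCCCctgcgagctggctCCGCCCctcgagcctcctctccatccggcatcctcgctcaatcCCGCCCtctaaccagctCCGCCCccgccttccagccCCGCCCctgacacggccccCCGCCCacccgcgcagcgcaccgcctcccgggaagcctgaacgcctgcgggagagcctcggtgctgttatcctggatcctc
Pld1: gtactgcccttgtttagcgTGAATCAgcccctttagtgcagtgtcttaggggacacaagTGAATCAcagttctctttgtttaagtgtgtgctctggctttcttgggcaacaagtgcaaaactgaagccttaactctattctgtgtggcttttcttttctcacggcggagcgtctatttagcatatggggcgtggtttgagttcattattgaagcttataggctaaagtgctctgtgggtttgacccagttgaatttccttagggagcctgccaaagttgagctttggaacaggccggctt

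The Napepld promoter was 74.7% G and C and held 32 CG dinucleotides, and 91.6% of 33469 promoters of this length held fewer. The Pld1 promoter was 46.3% G and C, held 6 CG dinucleotides, and exceeded 43.7% of promoters in that count. The median promoter held 7. The GC box GGGCGG occurred 8 times in the Napepld promoter, each time on the reverse strand, so that it reads CCGCCC above, and did not occur in the Pld1 promoter. At least 1 GC box was found in 33.1% of promoters, and 8 or more in 0.233%. The AP-1 motif was searched as the loose pattern TGANTCA, where N allows any base. This pattern occurred 2 times in the Pld1 promoter, at positions -231 and -191 from the start. Both matches had A at the free place (TGAATCA), and none had C or G there. The pattern did not occur in the Napepld promoter. With any base allowed, it was found in 7.33% of promoters, and 2 or more matches in 0.415%. The TATA box TATAAA was found in 14.2% of promoters and the kappaB motif in 4.18%, and neither matched in these windows. No matches to different motifs overlapped, and the AP-1 motif reads the same on both strands, so each of its matches was counted once. These matches describe letters only, and no binding or chromatin was measured in the data used here.

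On the arrays 90.1% to 93.8% of spots exceeded background by the scanner software's own test, and none was saturated. The arrays lay on 3 slides: slide 1 held LPS replicates 6 and 7, slide 2 held control replicates 15, 16, 17 and 18, and slide 3 held LPS replicates 1, 3 and 5 together with control replicate 20. Control replicate 20 stood apart. Its log2 values differed from the mean of the other controls with an SD of 0.74 over probes, against 0.23 to 0.38 for every other array measured against the rest of its own group. On 64.1% of tested probes it lay nearer the LPS mean than the mean of the slide 2 controls. That LPS mean includes LPS replicates 1, 3 and 5 of its own slide, so slide and group cannot be told apart in this share. The sources used here do not settle whether the label of control replicate 20 is right. The labels number the samples without naming separate animals, so the tests weigh differences only against the spread among these samples, which may be technical. The lists of other genes in the N-acylethanolamine pathway (22 genes), the phosphatidic acid pathway (31 genes) and of lung and leukocyte markers (35 genes) had 0 members with a named probe. The makeup of the tissue could therefore not be checked against markers, and in bulk RNA fewer cells of a type and less RNA per cell cannot be told apart.

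Napepld signal was higher in the LPS lungs. The mean processed signal of its spots, in arbitrary intensity units, was 140 in LPS replicate 1, 155 in replicate 3, 186 in replicate 5, 142 in replicate 6 and 196 in replicate 7. In the controls it was 73.9 in replicate 15, 86.9 in replicate 16, 88.3 in replicate 17, 66.7 in replicate 18 and 77.9 in replicate 20. These unscaled signals did not overlap between the groups, which was so in the same direction for 12.7% of tested probes. Overall brightness differed between arrays, however: the 75th percentile of probe signal ranged from 278 to 351 on slide 2, and from 380 to 494 elsewhere.

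After each array was scaled to its 75th percentile, the log2 signal of Napepld relative to that percentile was -1.45 in LPS replicate 1, -1.45 in replicate 3, -1.41 in replicate 5, -1.80 in replicate 6 and -1.31 in replicate 7. In the controls it was -2.26 in replicate 15, -1.68 in replicate 16, -1.82 in replicate 17, -2.16 in replicate 18 and -2.52 in replicate 20. LPS replicates 1, 3, 5 and 7 lay above every control, and LPS replicate 6 lay below control replicate 16 and just above control replicate 17. The group means were -1.48 ± 0.19 (SD, n = 5) with LPS and -2.09 ± 0.34 (SD, n = 5) in controls.

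Napepld thus rose by 0.60 ± 0.17 (SE) on the log2 scale, a fold of 1.52, with a 95% interval of 0.24 to 0.97 and a limma adjusted p of 0.0184 (Benjamini-Hochberg over 36020 probes). The exact permutation test over the 252 ways to assign 5 of 10 arrays, 2-sided, gave p = 0.0159 for this gene alone, where the smallest p possible is 0.00794. Neither test takes account of slide, although slide 1 held only LPS arrays and slide 2 only controls. The call is a common one in these data: 33% of tested probes passed the threshold and 14.7% passed it as higher in LPS, while for 6.76% all LPS arrays lay above all controls. The Napepld difference exceeded that of 89.5% of tested probes, whose median difference was -0.05. After normexp background correction, which added an offset of 50 to every signal, the Napepld difference was 0.33 (limma adjusted p = 0.0389). That is a fold of 1.26 between signals that include the offset, with the median of all probes at -0.21. Relative to the median of all probes, Napepld was 0.55 higher there, against 0.66 in the fit reported. Without the LPS arrays of slide 1 the Napepld difference was 0.65 and did not pass (limma adjusted p = 0.0509).

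**Figure D1:**
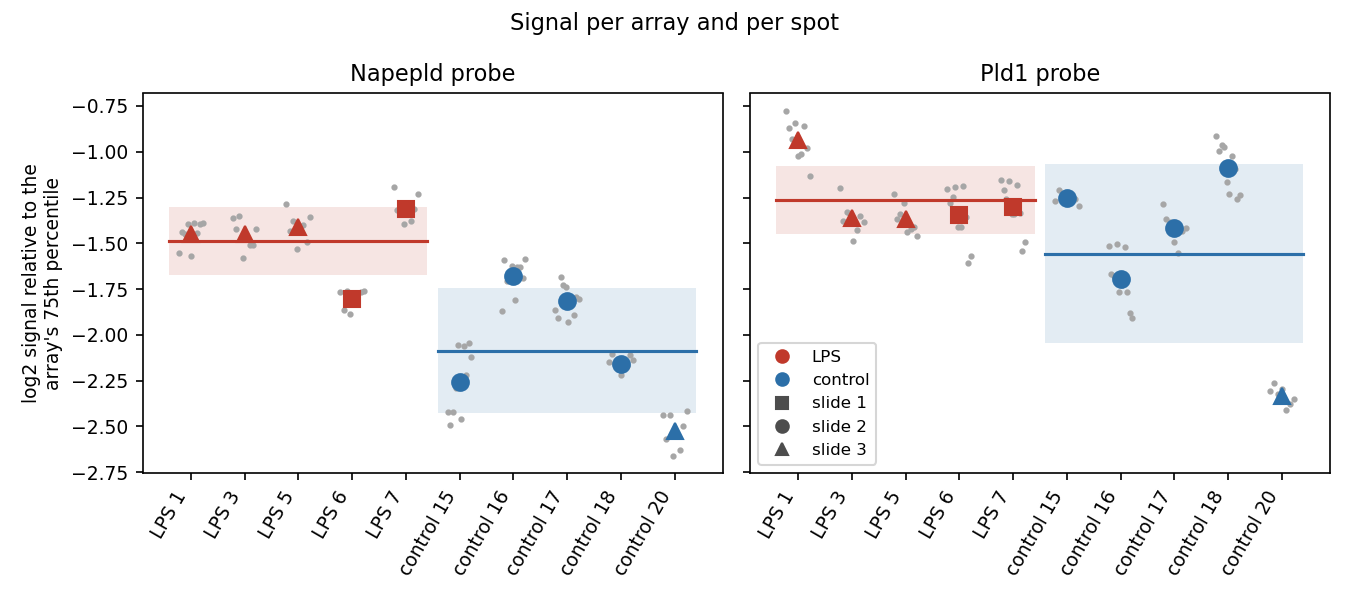
Log2 signal relative to the array's 75th percentile (vertical axis) on each of the 10 arrays (horizontal axis) for the Napepld probe (left) and the Pld1 probe (right). Large symbols are array means, shaped by slide, small grey dots are spots, and lines and bands are the group mean and its SD; 4 LPS arrays lie above all controls for Napepld and 1 does for Pld1.

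The error from spots was small beside the spread between arrays. Of 100 Napepld spots 88 were used, 8 or more on each array, after 12 marked as outliers were left out, and the SD between spots of an array was 0.037 to 0.18, with a median of 0.078 on the log2 scale. The SE of an array's mean was thus 0.012 to 0.057. For Pld1, 86 of 100 spots were used, 7 or more on each array, the SD was 0.028 to 0.15, with a median of 0.099, and the SE was 0.011 to 0.048. All 100 spots of each probe were well above background, and taking the median spot in place of the mean moved no array by more than 0.030 for Napepld or 0.028 for Pld1.

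Pld1 signal was also higher on average with LPS, but did not pass the test. After scaling, the difference was less than the SD of the controls, though more than the SD of the LPS arrays. Its mean processed signal was 199 in LPS replicate 1, 165 in replicate 3, 192 in replicate 5, 195 in replicate 6 and 198 in replicate 7, and in the controls 147 in replicate 15, 86.4 in replicate 16, 116 in replicate 17, 141 in replicate 18 and 88.9 in replicate 20. As for Napepld, the unscaled signals of the groups did not overlap, which was so in the same direction for 12.7% of tested probes. Scaling brought the groups together. Relative to the 75th percentile, Pld1 log2 signal was -0.94 in LPS replicate 1, -1.36 in replicate 3, -1.37 in replicate 5, -1.35 in replicate 6 and -1.30 in replicate 7. The controls were at -1.25 in replicate 15, -1.69 in replicate 16, -1.42 in replicate 17, -1.09 in replicate 18 and -2.33 in replicate 20. Only LPS replicate 1 lay above all controls, and control replicates 15 and 18 lay above the other 4 LPS arrays.

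The Pld1 means were -1.26 ± 0.18 (SD, n = 5) with LPS and -1.56 ± 0.49 (SD, n = 5) in controls. The difference was 0.29 ± 0.21 (SE) on the log2 scale, a fold of 1.23, with a 95% interval of -0.16 to 0.75 and a limma adjusted p of 0.291, and the exact permutation p, 2-sided, was 0.238. The interval holds no change as well as a rise of the size measured for Napepld. The Pld1 difference exceeded that of 75.8% of tested probes.

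Control replicate 20 was the lowest array for both genes, as it was for 18.5% of tested probes. Without it every control lies on slide 2 and every LPS array on another slide, so that slide and group cannot be told apart. The Napepld difference was then 0.49 ± 0.14 (SE), with a limma adjusted p of 0.0137, in a fit that called 24.9% of probes higher. Without it the Pld1 difference was 0.10 ± 0.14 (SE), with an interval of -0.21 to 0.41 and a limma adjusted p of 0.566. The low Pld1 mean of the controls therefore rests on 1 array: the slide 2 controls averaged -1.36 ± 0.26 (SD, n = 4), within the spread of the LPS arrays. For Napepld the slide 2 controls averaged -1.98 ± 0.27 (SD, n = 4), below the LPS arrays of slide 1 at -1.56 ± 0.35 (SD, n = 2) and of slide 3 at -1.44 ± 0.021 (SD, n = 3).

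The only comparison within a slide sets the 3 LPS arrays of slide 3 against control replicate 20, and there both genes were higher with LPS, by 1.09 for Napepld and 1.11 for Pld1 on the log2 scale. Fitted on slide 3 alone, where the control is 1 array assumed to vary like the LPS arrays, the limma adjusted p was 0.0407 for Napepld and 0.0682 for Pld1, where 1.59% of probes were called higher and 30.6% had all 3 LPS arrays above the control. With slide as a fixed block over all 10 arrays, which leaves the same arrays to set the difference, the limma adjusted p was 0.027 for Napepld and 0.0238 for Pld1, against 4.83% of probes called higher. Both differences then exceeded those of about 97% of probes (97.1% and 97.2%). This was not particular to them: among the other named genes, Fgf2 (1.31), Ptk2b (1.22), Nlrp3 (1.13) and Cdh2 (1.11) had larger differences in that fit. With slide as a random block the difference was 0.86 for Napepld (limma adjusted p = 0.0263) and 0.74 for Pld1 (limma adjusted p = 0.0809), and 4.18% of probes were called higher. These slide values turn on the single control that stood apart and whose label could not be checked here. Its part in them was not tested.

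Without any of the 4 arrays of slide 3, LPS replicates 6 and 7 are set against the slide 2 controls, and slide and group again cannot be told apart. Napepld was then higher by 0.42 (95% interval -0.070 to 0.91, limma adjusted p = 0.138), and Pld1 by 0.04 (limma adjusted p = 0.872). With no scaling between arrays both genes were called, Napepld at 1.05 (limma adjusted p = 0.000825) and Pld1 at 0.74 (limma adjusted p = 0.00836), while the median of all probes was itself 0.40 higher with LPS and 37.4% of probes were called higher.

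**Figure D2:**
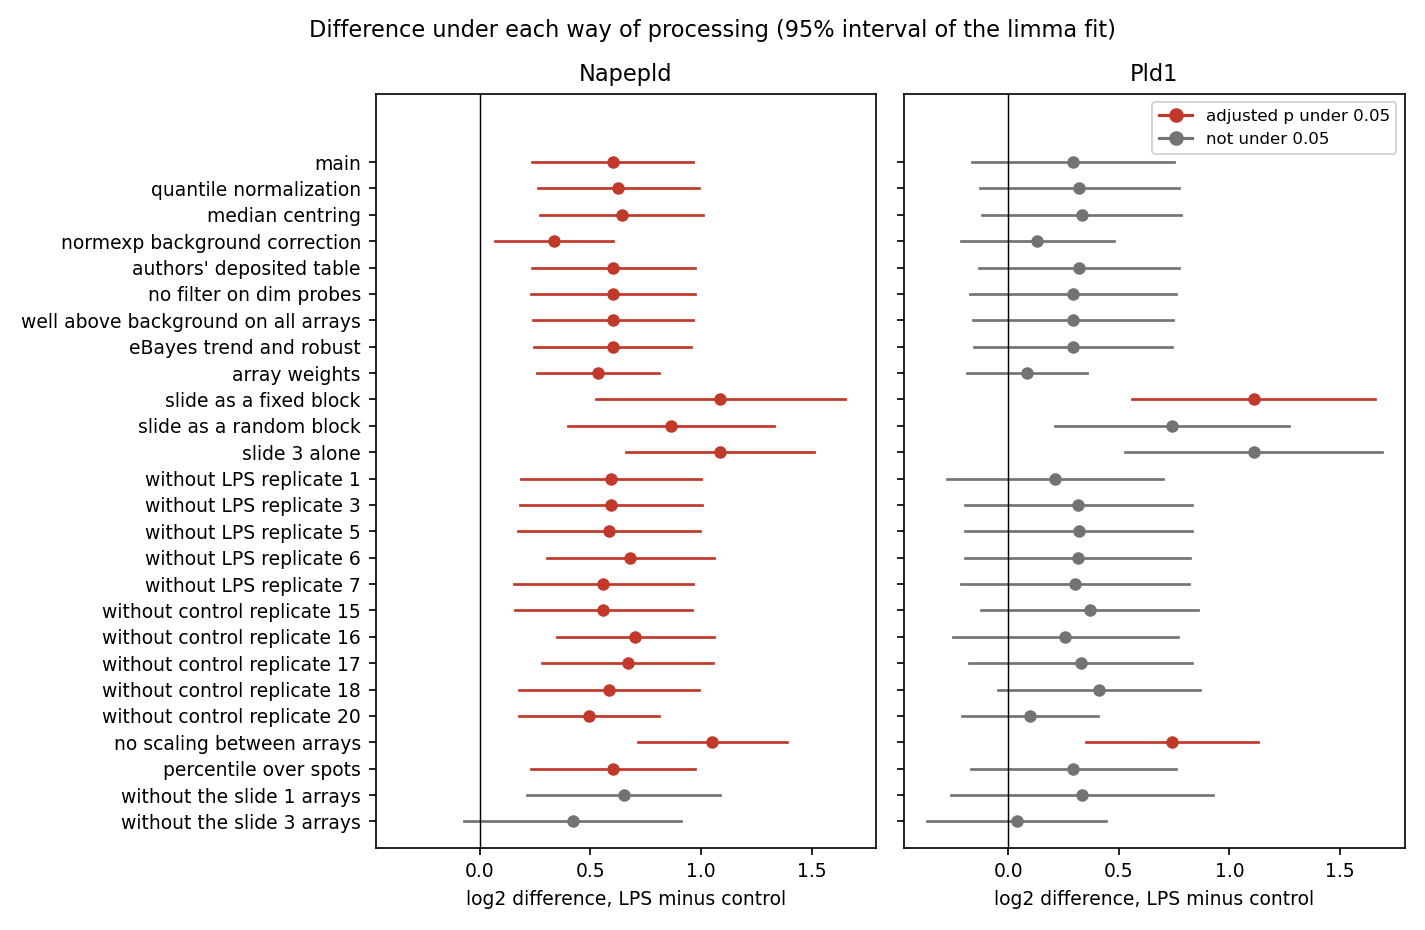
Log2 difference, LPS minus control (horizontal axis), for Napepld and Pld1 under each way of processing (rows), with 95% limma intervals. Red marks an adjusted p under 0.05: leaving aside slide 3 alone, with its 1 control, Napepld is past it in 22 of the 24 other settings (0.33 to 1.09) and Pld1 in 2 (0.04 to 1.11). The settings reuse the same arrays and are not independent.

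**Figure D3:**
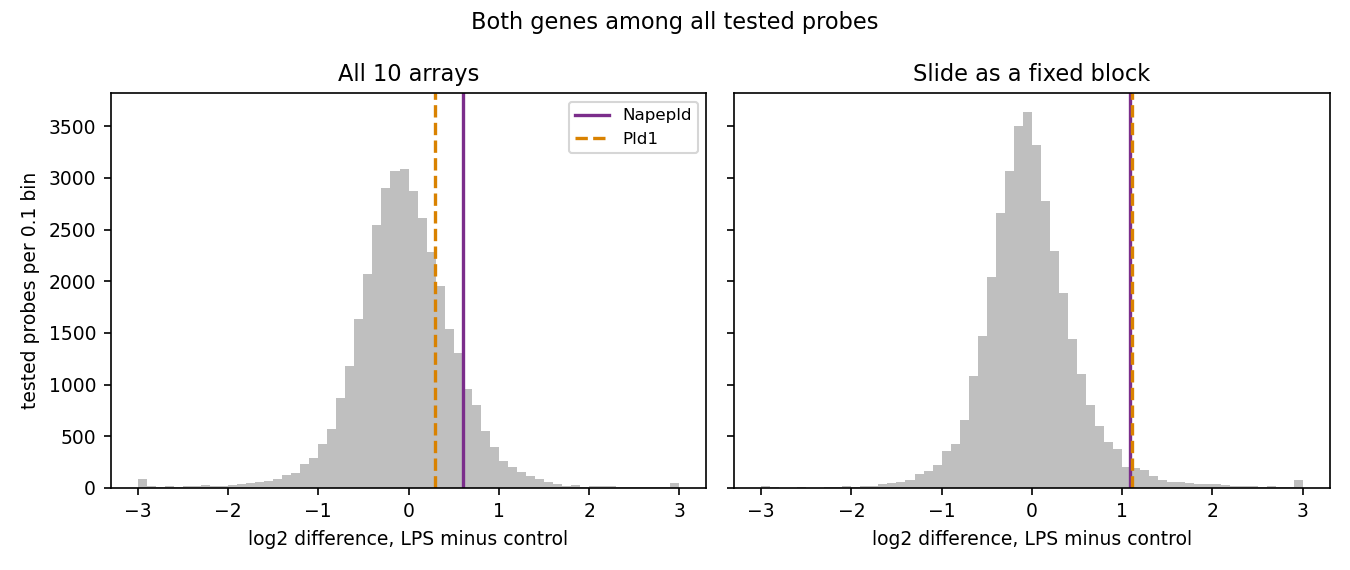
Number of tested probes per bin of 0.1 (vertical axis) by log2 difference, LPS minus control (horizontal axis), with all 10 arrays (left) and with slide as a fixed block (right); the outermost bins gather all values beyond 3. Lines mark Napepld and Pld1, at 0.60 and 0.29 on the left and nearly together at 1.09 and 1.11 on the right.

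Whether Napepld responded more than Pld1 was tested on their difference within each array. The rise was larger for Napepld by 0.31 on the log2 scale, with an interval of -0.26 to 0.98 from the exact permutation test and p = 0.254, 2-sided. The data thus do not separate the responses of the enzymes, although only Napepld passed the threshold. Within slide 3 the order turned, to -0.022. Leaving out single arrays gave 0.17 to 0.44, with exact permutation p of 0.103 to 0.524.

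Among the 4 slide 2 controls the genes ran in nearly opposite order. Replicates 16 and 17 were the highest for Napepld and the lowest for Pld1, and replicates 15 and 18 the reverse, with a Pearson r of -0.88. Over all 10 arrays r was 0.50, and without control replicate 20 it was -0.10. These correlations share the scaling of each array and are given as a description.

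**Figure D4:**
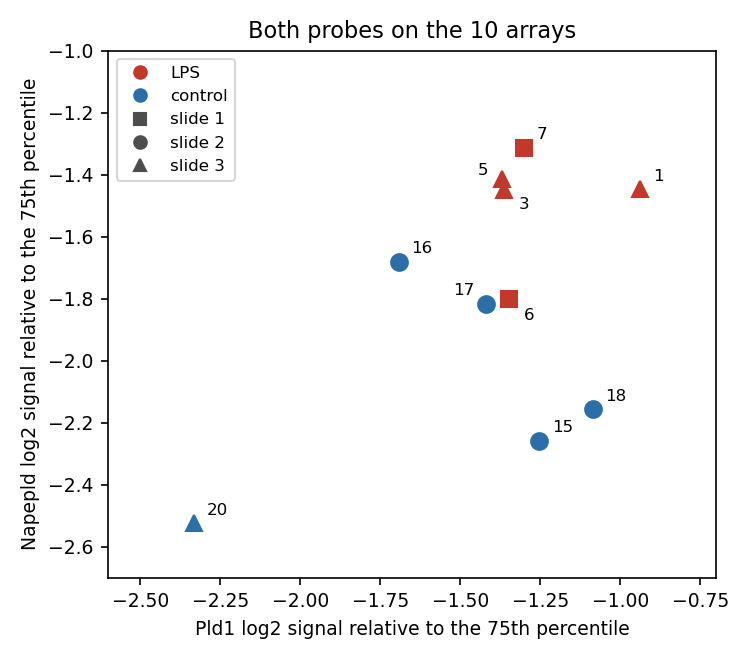
Napepld log2 signal (vertical axis) against Pld1 log2 signal (horizontal axis), both relative to the array's 75th percentile, on the 10 arrays, coloured by group, shaped by slide and numbered by replicate. LPS replicates 1, 3, 5 and 7 lie above all controls for Napepld, 4 LPS arrays lie close together for Pld1, control replicate 20 is lowest for both, and the slide 2 controls fall from upper left to lower right.

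Spread within the groups was alike for the genes except where control replicate 20 enters. The SD over the 4 slide 2 controls was 0.27 for Napepld and 0.26 for Pld1, against a median of 0.17 over all tested probes. The medians are only a rough guide, because the genes' values average 7 to 10 spots and most probes have fewer: 38804 probes fill 41800 spots. Over the LPS arrays it was 0.19 and 0.18, close to the median of 0.19. Over all 5 controls it was 0.34 for Napepld and 0.49 for Pld1, against a median of 0.28.

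Among the other 28 tested genes with a name, those whose values over the 10 arrays were most like Napepld were Nat1 (Pearson r = 0.82), which encodes an arylamine N-acetyltransferase, Cdh2 (0.81), which encodes N-cadherin, and Ndfip2 (0.76), which encodes an adaptor of Nedd4 family ubiquitin ligases. Without control replicate 20 these were 0.72, 0.82 and 0.55, and over the 4 slide 2 controls -0.45, 0.31 and 0.43. Most like Pld1 were Nat1 (0.83), Pdcd10 (0.66), which encodes a scaffold of the cerebral cavernous malformation complex, and Ndfip1 (0.66), and without control replicate 20 these were 0.31, -0.57 and -0.12. The likeness of Pld1 to these 3 genes thus rested on 1 array, while its likeness to Ldha, which encodes lactate dehydrogenase A, was 0.63 with that array and 0.54 without it. In order of signed difference, from the highest rise down, Napepld ranked 3 and Pld1 ranked 7 among the 29 genes, of which 5 passed the threshold as higher in LPS and 5 as lower.

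**Figure D5:**
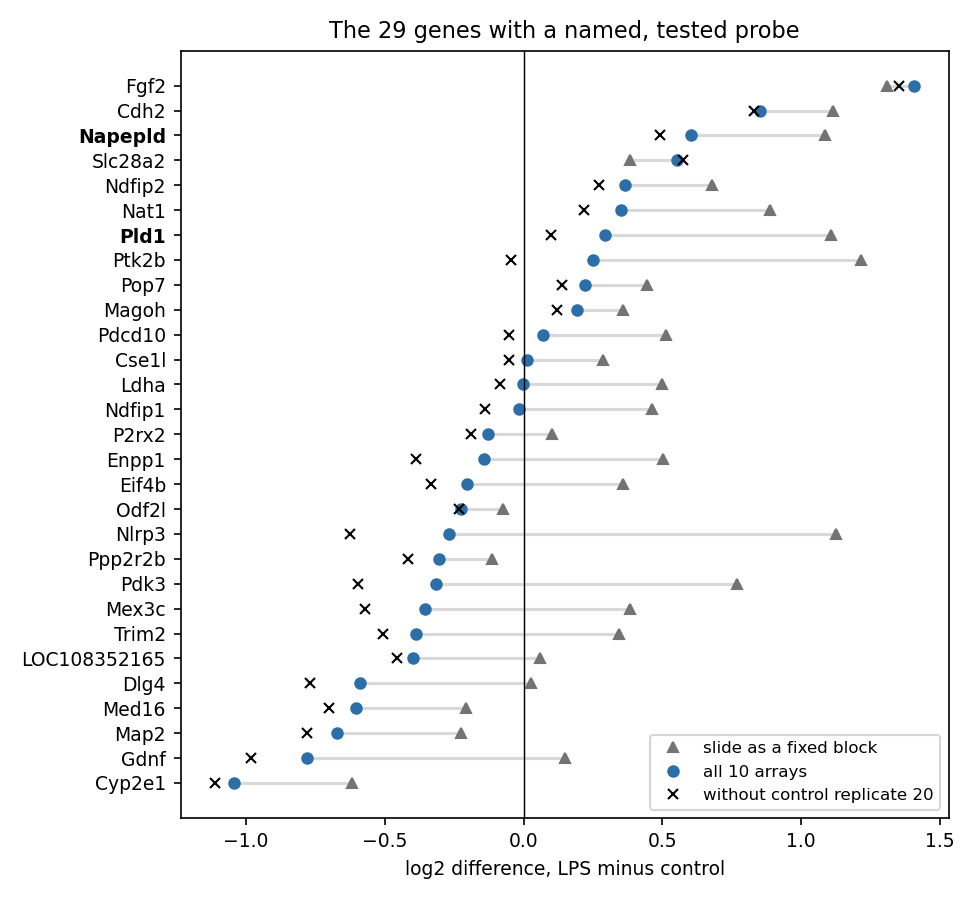
Log2 difference, LPS minus control (horizontal axis), for the 29 tested genes with a named probe (rows), with all 10 arrays (circles), slide as a fixed block (triangles) and without control replicate 20 (crosses). Napepld stays at 0.49 without that array while Pld1 falls to 0.10. With slide as a block both lie above 1, as do Cdh2, Fgf2, Nlrp3 and Ptk2b.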

How the data were processed

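Total RNA of each sample, labelled with Cy3, was hybridised to 1 Agilent array in a single colour, per the labels' protocols. The authors deposited spot intensity values from Feature Extraction 11.0.1.1, already background-subtracted and not scaled between arrays, per the file headers. The authors also deposited a log2 table. Its columns share a median of 6.18 and quartiles of 4.41 and 8.60, as quantile normalization leaves them. Its values followed log2 scanner signal (r = 0.994 to 0.996 over probes), and no source used here names its tool.

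Control spots and outlier spots were left out, and log2 processed signal was averaged over a probe's spots and taken relative to the array's 75th percentile over probes. Of 38804 probes, 126 were left out for outliers and 2658 for not being well above background on at least 5 arrays. Tests on the remaining 36020 used limma 3.58.1 under R 4.3.3 (lmFit, eBayes, groups alone, threshold 0.05). The fit was also run on simulated arrays without a slide effect, which cannot show how it behaves with the slides here. Single values used exact permutation tests over arrays, 2-sided. Slides came from scan stamps in the headers, and statmod 1.5.0 served the random block.

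Names came from accessions of 50 catalogue probes, matched to RefSeq. The genes named are the members and, for each, the 3 named genes with the highest Pearson r. Ldha, Cyp2e1, Fgf2, Ptk2b and Nlrp3 were named after their values were seen. Members and lists were chosen with earlier results of these data known. Alternatives were other normalizations, background correction, filters, slide blocks, array weights, the authors' table and leaving out arrays. The normexp correction used median signals, which the files hold, and an offset of 50. The number of arrays limits the precision.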

Additional observations from a re-analysis of the deposited data

Results flagged for a closer look

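In each group of 5 arrays the gap between the most extreme array and its neighbour, as a share of the group's range, was compared with Dixon's critical value of 0.71, which chance passes in about 1 of 20 groups. For Napepld, LPS replicate 6 was the lowest of its group, and the gap to the next array was 0.718 of the range. For Pld1, LPS replicate 1 was the highest of its group, at 0.844. These were 2 of 6 groups examined, counting the response difference.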

How the results depend on the processing

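The settings reuse the same arrays, and some leave the difference itself unchanged, so a count of settings is not independent support. Across those counted here, 4.18% (slide as a random block) to 37.4% (no scaling) of probes were called higher. Leaving aside slide 3 alone, with its 1 control, Napepld kept its direction in all 24 other settings and passed the limma threshold in 22. It missed it without the slide 1 arrays (0.65, adjusted p = 0.0509) and without the slide 3 arrays (0.42), and was 0.33 after normexp correction, which moved the median of all probes from -0.05 to -0.21. Leaving out single arrays gave 0.49 to 0.70 for Napepld (adjusted p = 0.013 to 0.0477) and 0.10 to 0.41 for Pld1 (0.165 to 0.566). Pld1 passed in 2 settings, slide as a fixed block (1.11) and no scaling (0.74). It was 0.13 after normexp correction and 0.09 with array weights, which gave control replicate 20 a weight of 0.107. The response difference was 0.17 to 0.44 without single arrays, and -0.022 with slide as a fixed block and on slide 3 alone. The cause was not tested.

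The count of probes past the threshold was 11876 in the fit reported, 18311 after normexp correction, 21921 with array weights, 3644 with slide as a fixed block, 3169 as a random block, 920 on slide 3 alone, with fewer arrays, and 5294 without the slide 1 arrays. Without single arrays it was 7886 (control replicate 17) to 19560 (control replicate 20), and 7904 without control replicate 18. Of the called probes 44.7% were higher, against 19.3% after normexp correction and 91.3% with no scaling. No scaling, the percentile over spots and leaving out a slide's arrays were chosen after seeing the data. No paired analysis was possible because no replicate number occurs in both groups.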

Other observations

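The named genes as a group were low on control replicate 20. It was the lowest control for 26 of the 29 tested genes with a name, Napepld and Pld1 among them, against 42.4% of all tested probes. With slide as a fixed block the signed difference, LPS minus control, moved upward for 27 of the 29, and for 55.2% of all tested probes. Among genes that were lower with LPS, some stayed lower by less, such as Cyp2e1 (-1.05 to -0.62). Others changed sign, such as Nlrp3 (-0.27 to 1.13).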
